A study of Mus musculus with 8 samples.

Results

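Oxidative phosphorylation is the process by which mitochondria turn the energy of nutrients into ATP. Complexes I to IV of the inner mitochondrial membrane pass electrons from NADH and succinate to oxygen and, complex II excepted, pump protons; complex V, the ATP synthase, lets the protons flow back and makes ATP. Most subunits are encoded in the nucleus and the rest on the mitochondrial genome. Fast-spiking parvalbumin neurons, a class of inhibitory neuron, are known for a high demand for mitochondrial ATP, and thyroid hormone is a long-known regulator of mitochondrial gene expression in other tissues. The nuclear-encoded genes of these complexes are described here in sorted inhibitory neurons of mice that carry, or lack, an altered receptor for thyroid hormone.

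The genes were taken by name: protein-coding rows whose GENCODE M21 symbol starts with Nduf and a subunit letter (complex I), Sdh (complex II), Uqcr (complex III), Cox4 to Cox8 (complex IV) or Atp5 (complex V). This gave 84 gene identifiers with 83 symbols among the 55450 genes of the tables, since Atp5o has a second identifier. A filter on low counts left 77 of the 84 among 16448 tested genes.

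RNA was taken from the fluorescent nuclei of GABAergic neurons, sorted from frozen cortices of juvenile mice, 1 cortex for each library. All mice carried a Cre driver active in GABAergic neurons and a Cre-dependent nuclear reporter. Mutants also carried a Cre-dependent mutant Thra allele (genotype Thra+/AMI) whose receptor product acts against the normal one, and controls were Thra+/+; the Cre line and the exact age are not given in the sources used here. The tables of mutants 7 and 10 held the same count in each of the 21975 genes compared. They thus differed by less than sampling noise and entered as 1 sample, so that 4 controls (1 to 4) were compared with 3 mutants (6, 7 and 8). Nothing beyond the separate cortices says how litters or sorts were arranged, so p-values measure the spread between these samples.

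Total counts were 10747169 to 13804734 per library, and 1 CPM (a count scaled to the library's total) equalled 10.7 reads in the smallest. Per gene counts do not separate the mutant Thra transcript from the normal one. Of the GABAergic markers, 2 of 9 (Dlx6 and Dlx1) were listed at 0, and their summed level was 5003 to 6236 CPM in controls and 5532 to 6736 in mutants. Summed markers of glutamatergic neurons (8 genes) were at 323 to 438 CPM in controls and 266 to 332 in mutants, and those of oligodendrocytes (7 genes) at 151 to 191 and 166 to 201. Among the latter, Mog, of the myelin sheath, rose from 11.1 ± 2.15 CPM (SD, n = 4) to 21.2 ± 2.49 (n = 3), with a log2 fold change of 0.93 ± 0.18 (edgeR, adjusted p = 0.00545) and no overlap between the groups; it was named after its value was seen. Astrocyte markers (7 genes, Gfap at 0) reached 50.8 to 83.1 CPM in controls and 52.9 to 62.7 in mutants, and endothelial markers (7 genes) 53.9 to 117 and 53.0 to 78.4. Microglial markers (7 genes, P2ry12 at 0) were at 14.6 to 19.9 CPM in controls and 20.8 to 24.2 in mutants, and oligodendrocyte precursor markers (4 genes, C1ql1 and Gpr17 at 0) at 6.85 to 12.7 and 6.43 to 8.52; the part of other cells in the values below was not tested. Pvalb, the calcium-binding protein that names parvalbumin neurons, averaged 41.0 ± 5.91 CPM (SD, n = 4) in controls and 1.81 ± 0.682 (n = 3) in mutants. In bulk samples, fewer cells of a type and less RNA per cell cannot be told apart.

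The oxidative phosphorylation genes were slightly lower in mutants as a group, and a few of them passed the test. The median log2 fold change of mutant over control was -0.32 over the 77 tested genes, a ratio of 0.802, with the middle of the genes between -0.43 and -0.23. The value was under 0 for 76 of the 77 genes (98.7%), against 52% of all tested genes. At an adjusted p under 0.05 (edgeR quasi-likelihood test, Benjamini-Hochberg over all tested genes), 7 members fell (9.09%) and 0 rose, beside 4.78% of all tested genes that fell and 4.63% that rose. At an unadjusted p under 0.05, 33 members were lower and 0 higher, against 11.7% of all tested genes lower and 10.9% higher, and 0 members were called higher in any other fit that was run, DESeq2 and limma's voom included. The 3 mutants were all below the 4 controls in 17 members, which is 22.1% of those tested, against 10.7% of all tested genes. Every tested member of complexes I to IV had a value under 0, and Atp5s of complex V was the exception. The plot of changes by gene shows this narrow band just under 0.

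**Figure D1:**
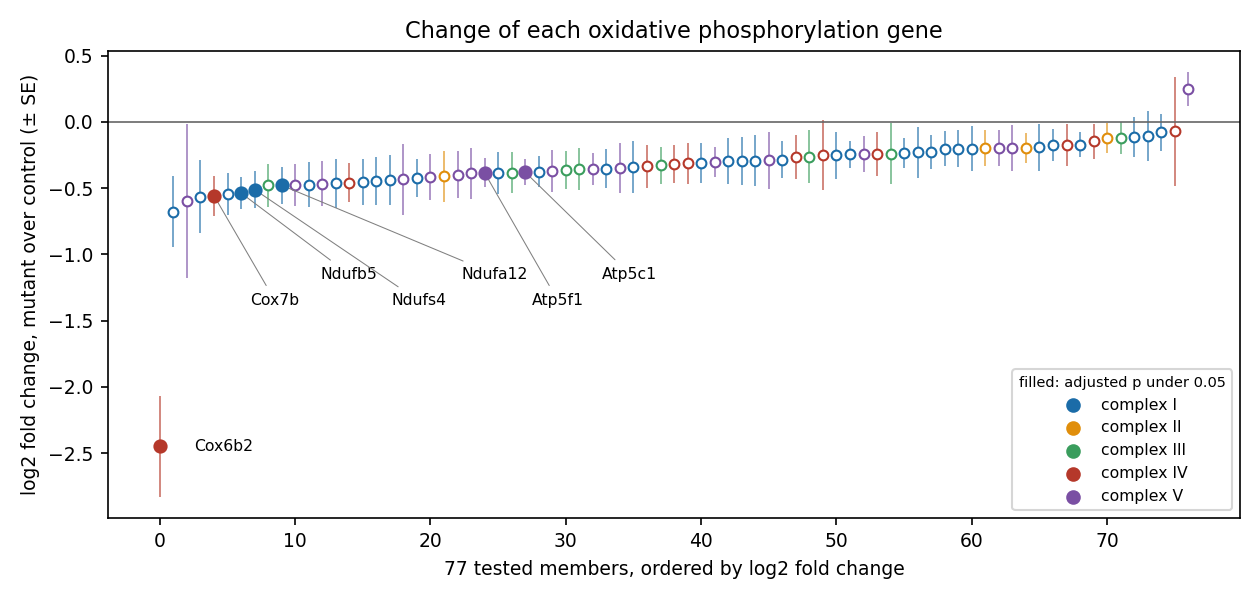
Log2 fold change of mutant over control (vertical axis, ± SE) of the 77 tested genes in order of their value (horizontal axis), coloured by complex; filled points have an adjusted p under 0.05. The middle of the genes lies between -0.43 and -0.23, Cox6b2 is far below at -2.45, and Atp5s is above 0 at 0.25.

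The promoters of these genes carry elements known from nuclear genes of mitochondria, which the choice of members did not use. NRF1 and YY1 are transcription factors known to act on nuclear genes for mitochondria, and estrogen-related receptors (ERR) do so with the coactivator PGC-1α. RefSeq promoter windows (GRCm38.p6, 250 bases before to 50 after the start) were matched for 68 of the 83 symbols and searched on both strands for fixed letters. The NRF1 core CGCATGCG was found in 9 members (13.2%), against 2.73% of 17424 other protein-coding genes and 1.87% of all 32851 windows. The YY1 element AAGATGGCG was found in 7 members (10.3%), against 2.11% of the other genes and 1.40% of all windows. The ERR element AAGGTCA, which contains the receptor element AGGTCA, was found in 8 members (11.8%), against 4.71% of the other genes and 4.72% of all windows. A direct repeat of AGGTCA with 4 bases between the copies is the classical thyroid hormone receptor element. It was found in 0 members, 0 other protein-coding genes and 0.0152% of all windows. With 0 matches in the other genes, this search for exact letters cannot tell members apart from them. Of the 7 members that fell, all with a window, 0 held the NRF1 core, 1 the YY1 element and 0 the ERR element. A match is a description of the letters and not of binding. The stretches below are examples from genes of complexes I, IV and V, written 5′ to 3′ on the gene's strand. Each lies upstream of its RefSeq start site, and matches that reach past that start were counted but are not shown. The stretches of Atp5j, Ndufb4 and, in part, Atp5k lie inside the gene's GENCODE span. The element is in capitals (TGACCTT is AAGGTCA on the other strand).
Cox6a1, NRF1, chr5:115349092-115349139 (-): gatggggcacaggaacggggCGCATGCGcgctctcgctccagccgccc
Ndufa11, NRF1, chr17:56717683-56717730 (+): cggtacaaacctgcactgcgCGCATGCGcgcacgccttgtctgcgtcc
Atp5k, NRF1, chr5:108434421-108434468 (-): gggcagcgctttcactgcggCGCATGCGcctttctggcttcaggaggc
Atp5j, NRF1, chr16:84835096-84835143 (-): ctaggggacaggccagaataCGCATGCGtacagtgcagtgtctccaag
Atp5j, YY1, chr16:84835036-84835084 (-): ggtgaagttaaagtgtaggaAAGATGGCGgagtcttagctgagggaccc
Atp5g3, ERR, chr2:73911352-73911398 (-): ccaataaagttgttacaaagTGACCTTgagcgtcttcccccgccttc
Ndufb4, ERR, chr16:37654397-37654443 (-): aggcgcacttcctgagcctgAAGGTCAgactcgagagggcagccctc

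The genes whose stretches are shown did not pass the test. Cox6a1, a subunit of cytochrome c oxidase, had a log2 fold change of -0.24 ± 0.17 (SE), and Ndufa11, a complex I subunit, one of -0.44 ± 0.19. Atp5j, coupling factor 6 of the ATP synthase, was at -0.48 ± 0.16 with an adjusted p of 0.0923 in edgeR's quasi-likelihood test, and its mutants lay below its controls.

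The libraries showed where the difference lay. The median over members of log2 CPM, relative to the mean of the 7 libraries, was 0.42, 0.11, 0.14 and -0.16 in controls 1 to 4. In mutants 6, 7 and 8 it was -0.25, -0.13 and -0.12. Controls 1 to 3 were above every mutant, and control 4 lay among the mutants, so the groups overlapped. The members above the mean of the libraries numbered 73, 65, 68 and 15 in controls 1 to 4, compared with 4, 18 and 15 in mutants 6, 7 and 8. Members took 0.576% ± 0.133 (SD, n = 4) of all counts in controls and 0.472% ± 0.0302 (n = 3) in mutants.

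Control 1 was the highest of the 7 libraries in 66 of the 77 members, against 24% of all tested genes, and control 4 the lowest control in 61, against 33.8%. The log2 ratio of control 1 over control 4 had a median of 0.61 over members, with 72 of 77 above 0, so this spread within the controls was wider than the difference between the groups. All mutants were under controls 1 to 3 in 53 members (68.8%, against 15.3% of all tested genes) and under controls 2 and 3 in 54 (70.1%, against 21.4%). All mutants were under controls 2 to 4 in 17 (22.1%, against 15.4%).

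The libraries also differed by gene length, so the members were set beside genes of similar genomic length. Members are short: their median length is 7.37 kb, against 28.1 kb over tested protein-coding genes, and 51 of the 77 are under 10 kb. Control 1 was high and control 4 low in short genes, with medians of 0.27 and -0.22 over protein-coding genes under 10 kb, and the reverse held over 100 kb, with -0.35 and 0.35. The mutants stayed between -0.06 and 0.07 in each length class. The plot of library levels by length shows that both controls deviated in opposite directions.

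**Figure D2:**
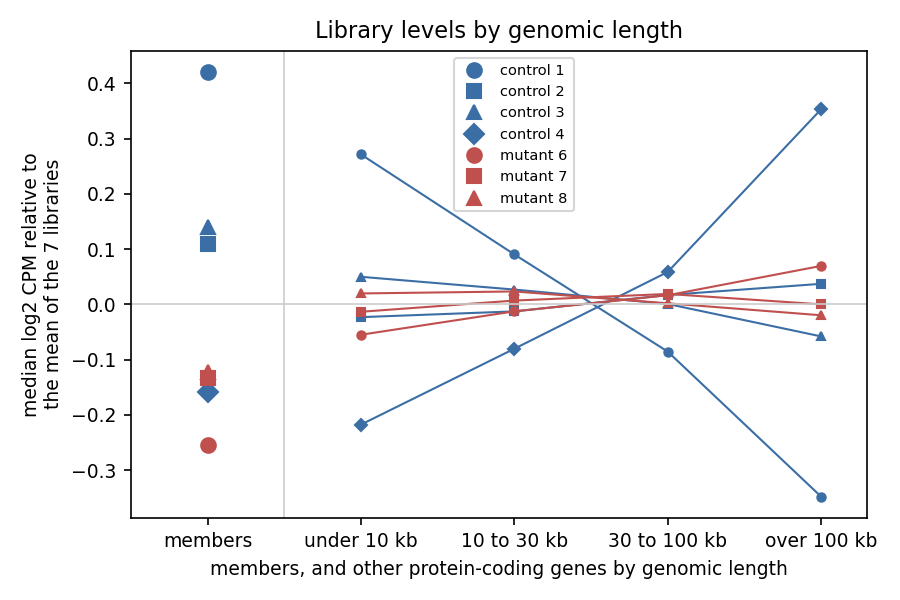
Median log2 CPM of each library relative to the mean of the 7 libraries (vertical axis) for the members and for other protein-coding genes in 4 classes of genomic length (horizontal axis); blue symbols are controls and red symbols mutants. Controls 1 and 4 cross from 0.27 and -0.22 in the shortest class to -0.35 and 0.35 in the longest, while the members of all mutants lie at -0.12 or lower.

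Genes of similar length did not show the lower level of the members. The window from the 10th to the 90th percentile of the members' lengths, 2.45 to 24.4 kb, held 5704 other tested protein-coding genes, with a median log2 fold change of -0.02. Of these, 52.7% were under 0, 4.61% fell, and 11.3% had all mutants below all controls. Restricting the window also to similar CPM (3073 genes) gave a median of -0.02, and so did a window of similar exon length (5708 genes). Under 10 kb, the median was -0.35 over 51 members and -0.05 over 2750 other protein-coding genes. From 10 to 30 kb, it was -0.25 over 21 members and 0.00 over 4223. The share called was closer to that of other genes. Of the 61 members inside the window, 4 fell (6.56%), beside the 4.61% above. Under 10 kb, 2 of 51 members fell (3.92%, against 4.73% of the others). From 10 to 30 kb, 4 of 21 did (19%, against 4.24%).

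The same check was made in each library. The members' median minus that of genes of similar length was 0.25, 0.13, 0.10 and -0.02 in controls 1 to 4, compared with -0.23, -0.13 and -0.15 in mutants 6, 7 and 8. On this scale, control 4 was above the 3 mutants and the groups did not overlap. With the length trend of each library removed, the members' medians were 0.27, 0.13, 0.11 and -0.04 in controls and -0.22, -0.11 and -0.15 in mutants, again with no overlap. Genes of similar length then lay between -0.05 and 0.05 in every library. The members' medians in controls still had a range of 0.32 after this removal, beside a difference between the groups of -0.28. Relative to genes of similar length, the range was 0.27 and the difference -0.29.

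**Figure D3:**
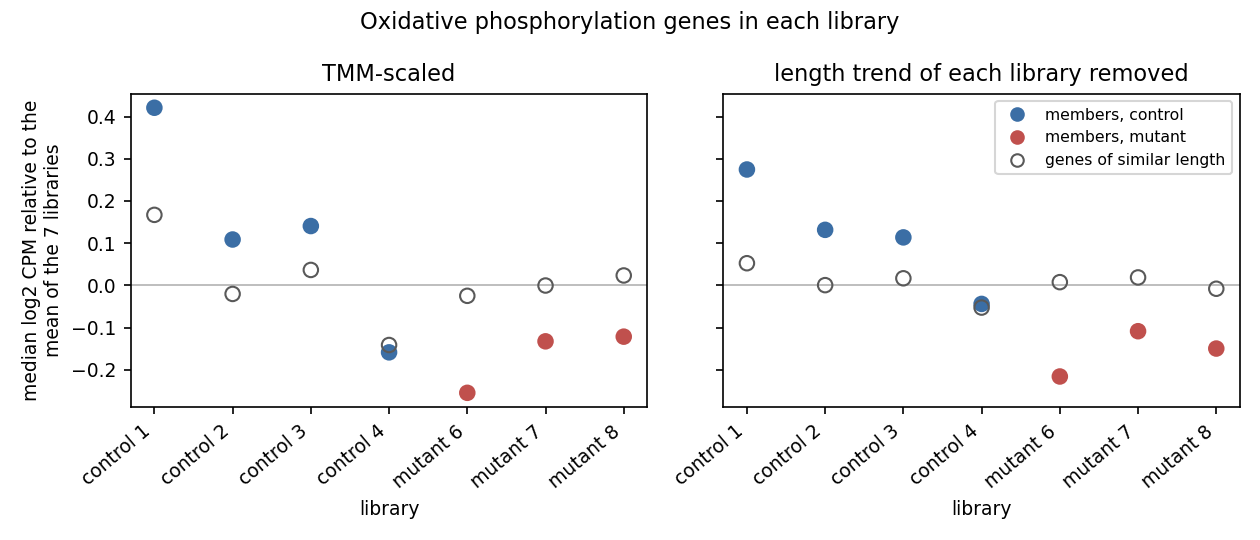
Median log2 CPM relative to the mean of the 7 libraries (vertical axis) in each library, over members (filled, blue for controls and red for mutants) and over protein-coding genes of similar length (open), before and after removal of each library's length trend. Control 4 lies among the mutants at -0.16 in the left panel and above them at -0.04 in the right panel.

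**Figure D4:**
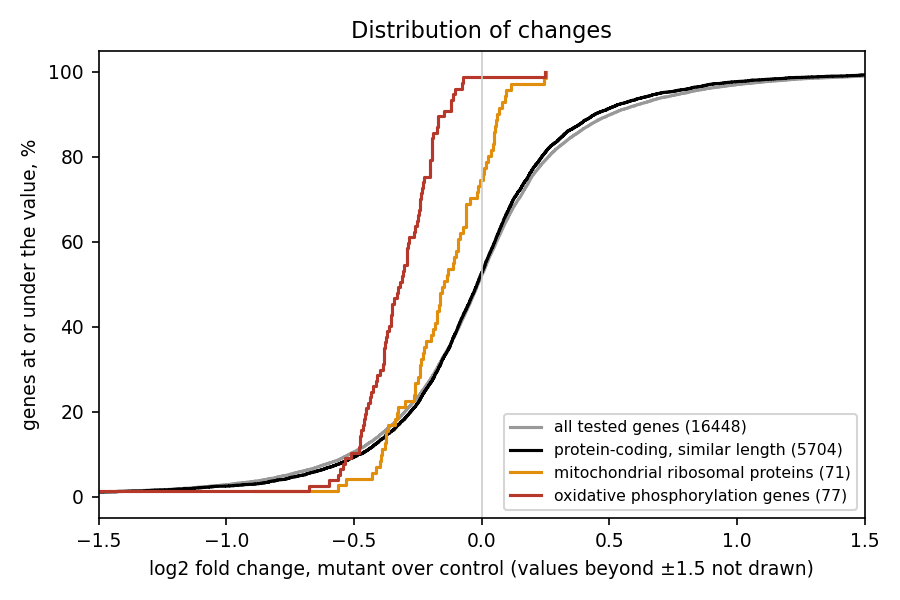
Share of genes (vertical axis, percent) at or under each log2 fold change of mutant over control (horizontal axis) for the members, mitochondrial ribosomal proteins, genes of similar length and all tested genes. The members' curve reaches 98.7% before 0, where genes of similar length are at 52.7%.

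The number of members called depended on which library was in the fit, while the median moved less. Without control 4, 35 members were called lower (6.98% of all tested genes were) with a median of -0.41, and without control 1, 5 (6.68% of all) with a median of -0.20. Without control 2, control 3, mutant 7 or mutant 8, 1 member was called (Cox6b2), beside 3.33%, 3.21%, 2.22% and 2.49% of all tested genes, and without mutant 6, 2 were (Cox6b2 and Ndufb5), beside 2.4%. The share of members called was then below or near that of all genes. With no filter on low counts, 8 members fell (3.14% of all tested genes), and Atp5c1, Atp5f1 and Ndufa12 were no longer called. Without both controls 1 and 4, 27 members fell (8.48% of all tested genes did) with a median of -0.31, and with a length offset in the fit, 18 fell (8.68% of all tested genes) with a median of -0.28. DESeq2 called 9 members (6.13% of all tested genes), limma's voom 28 (9.54%) and a fit with 1 surrogate variable 30 (10.9%). Across the fits, 94.7% to 98.75% of the tested members were under 0.

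Among the members, log2 fold changes were weakly related to genomic length (Pearson's r 0.24 and Spearman's rho 0.23 across 77 genes of the same libraries) and to mean CPM (0.35 and 0.11). These are correlations across genes, which are not independent replicates. The ratio of control 1 over control 4 gave -0.15 and -0.31.

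Complex I takes electrons from NADH and is the largest of the complexes. Its 35 tested genes of 36 had a median log2 fold change of -0.29. Of these, 3 fell (8.57%, beside 4.78% of all tested genes): Ndufb5, Ndufs4 and Ndufa12. Ndufs4 encodes a late-assembled subunit of the electron-input arm whose loss in mice causes a Leigh-like encephalopathy, and Ndufb5 and Ndufa12 encode accessory subunits.

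Ndufb5 (chromosome 3, 32736990 to 32751566, GRCm38) was at 68.8, 67.0, 66.6 and 54.3 CPM in controls 1 to 4, compared with 48.3, 41.9 and 42.5 CPM in mutants 6, 7 and 8. Control 4 was apart from the other controls but still above every mutant. The log2 fold change was -0.54 ± 0.12 (SE; edgeR's quasi-likelihood test, adjusted p = 0.0142). Of the complex I calls it was the 1 still made without mutant 6.

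Ndufs4 (chromosome 13, 114287795 to 114388258) was at 88.4, 117.5, 107 and 132.7 CPM in controls and at 82.9, 69.9 and 81.7 CPM in mutants. The groups did not overlap, and the order of the controls was the reverse of that in most members, with control 4 highest and control 1 lowest. The gene spans 100.5 kb, which places it with the long genes in which control 4 was high. Its log2 fold change was -0.51 ± 0.14 (edgeR, adjusted p = 0.0384), and -0.53 with the length offset (adjusted p = 0.000745).

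Ndufa12 (chromosome 10, 94198720 to 94221443) was at 28.4, 29.2, 24.5 and 25.4 CPM in controls and at 19.7, 21.2 and 17.0 CPM in mutants. All mutants were below all controls, with a log2 fold change of -0.48 ± 0.14 and an edgeR adjusted p of 0.0491, just inside the threshold (0.0636 with no filter on low counts). Ndufb10, an accessory subunit, lay just outside it, with 93.0, 76.9, 68.4 and 55.0 CPM in controls and 46.3, 48.9 and 55.6 CPM in mutants. Mutant 8 was above control 4 there, and the value was -0.54 ± 0.16 (edgeR, adjusted p = 0.0542).

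The core subunits Ndufv1 and Ndufs1 of complex I, which carry electrons inward from NADH, did not pass the test. Ndufv1, which binds NADH, was at 206.5, 153.6, 157.8 and 137.4 CPM in controls and 159.8, 142.8 and 163.3 CPM in mutants. The mutants lay within the range of the controls, with a value of -0.08 ± 0.14 that turned to 0.06 without control 1. Ndufs1, an iron-sulfur subunit, was at 80.4, 85.8, 82.9 and 85.8 CPM in controls and 72.1, 78.0 and 73.1 CPM in mutants; its groups did not overlap, but the value of -0.17 ± 0.10 did not pass (edgeR, adjusted p = 0.332).

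Other members of complex I whose groups did not overlap were Ndufa3 (-0.43, adjusted p = 0.0919), Ndufv3 (-0.37, 0.0643) and Ndufv2 (-0.25, 0.188), all with edgeR's test. The lowest value of the complex belonged to Ndufa1, an accessory subunit encoded on the X chromosome, with -0.68 ± 0.27 (edgeR, adjusted p = 0.149). Its libraries were at 21.9, 13.1, 13.5 and 10.7 CPM in controls and 6.65, 12.3 and 8.91 CPM in mutants, and overlapped through control 4 and mutant 7. The remaining complex I genes ran from -0.56 (Ndufb11) to -0.11 (Ndufb4). Ndufa4, at -0.34 ± 0.20, is counted here by its symbol, although its product has since been placed in complex IV.

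Complex II, succinate dehydrogenase, belongs both to the tricarboxylic acid cycle and to the respiratory chain and is wholly nuclear-encoded. Of its 4 genes 0 passed the test, and 0 had an unadjusted p under 0.05 in edgeR; DESeq2 and voom called 0 as well, and Sdhd was called in the fit with 1 surrogate variable and in that without control 4. The values were -0.12 ± 0.11 for the flavoprotein Sdha, -0.20 ± 0.14 for the iron-sulfur protein Sdhb, and -0.19 ± 0.11 and -0.41 ± 0.19 for the membrane anchors Sdhc and Sdhd. Sdha was at 270.7, 260.3, 264.8 and 232.1 CPM in controls and 231.0, 249.1 and 228.8 CPM in mutants, where mutant 7 exceeded control 4.

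Complex III passes electrons from ubiquinol to cytochrome c. Its 8 genes had a median of -0.34. Of these, 0 passed the test in edgeR or DESeq2 and 3 in voom, which called 9.54% of all tested genes lower. In edgeR, 5 had an unadjusted p under 0.05, beside 11.7% of all tested genes lower at that threshold. Uqcr11, a small accessory subunit, was at 67.6, 47.2, 56.3 and 39.2 CPM in controls and 37.9, 36.2 and 39.0 CPM in mutants. All mutants were below all controls, although control 4 was above mutant 8 by little, and the value was -0.48 ± 0.16 (edgeR, adjusted p = 0.0988). Uqcrh and Uqcrb also had no overlap, with -0.38 ± 0.16 and -0.36 ± 0.15. For Uqcr11, 2 near-identical pseudogenes held 27.2% of the joint counts of the gene and its copies. Its values thus depend on how the counting split such reads. The core subunit Uqcrc1 had -0.36 ± 0.16, and the Rieske iron-sulfur protein Uqcrfs1 had -0.24 ± 0.23, which turned to 0.02 without control 1.

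Complex IV, cytochrome c oxidase, hands electrons to oxygen. Its catalytic core is encoded on the mitochondrial genome and the nuclear subunits surround it, several of them as pairs of isoforms that differ by tissue. Of 18 genes 12 were tested, with a median of -0.29. Of these, 2 fell (16.7%, beside 4.78% of all tested genes): Cox6b2 and Cox7b.

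Cox6b2 (chromosome 7, 4751792 to 4753094), the isoform of subunit 6b best known from testis, had the lowest value of all members. It was at 4.84, 3.85, 4.03 and 3.15 CPM in controls and at 0.861, 1.01 and 0.313 CPM in mutants, from 61, 51, 53 and 39 reads and 11, 11 and 4 reads. Every control was more than 3 CPM and every mutant at about 1 CPM or less. The log2 fold change was -2.45 ± 0.38 (edgeR, adjusted p = 0.00164), a ratio of mean CPM of 0.183. It was the member called in every fit that was run, with values from -2.73 to -2.07. None of its span is shared with another gene, and no near-identical pseudogene was found. Its partner Cox6b1 was at 88.5, 72.8, 73.8 and 63.2 CPM in controls and 57.9, 72.2 and 72.3 CPM in mutants, which overlapped, with a value of -0.15 ± 0.13. Per kb of exon, Cox6b1 was at 105 CPM in controls and 95.2 in mutants, and Cox6b2 at 3.58 and 0.657.

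Cox7b (chromosome X, 106015700 to 106022450) was at 218.6, 182.3, 176 and 140.2 CPM in controls and at 105.7, 136.6 and 123.5 CPM in mutants. The lowest control was close above the highest mutant, and the log2 fold change was -0.56 ± 0.15 (edgeR, adjusted p = 0.0384). Its paralog Cox7b2 was at 4.08 ± 0.899 CPM (SD, n = 4) in controls and 3.42 ± 0.673 (n = 3) in mutants, with a value of -0.25 ± 0.26.

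The other tested subunits of complex IV did not pass. Cox5a, which lies next to the catalytic core, was at 68.4, 65.4, 58.4 and 44.4 CPM in controls and 40.7, 42.8 and 45.7 CPM in mutants. Control 4 was under mutant 8 there, and the value was -0.46 ± 0.15 (edgeR, adjusted p = 0.0732). Cox8a and Cox6a1 had -0.27 ± 0.17 and -0.24 ± 0.17, and Cox7a2l, a factor of respiratory supercomplexes, had -0.31 ± 0.15 with no overlap of the groups (edgeR, adjusted p = 0.261).

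Cox7a2 stood apart by its spread. It was at 59.2, 100.5, 91.6 and 38.7 CPM in controls and at 28.0, 88.2 and 91.0 CPM in mutants, so that controls 1 and 4 and mutant 6 were low and the other 4 libraries high in both groups. The value was -0.07 ± 0.41, with the widest SE among tested members other than the second Atp5o identifier. Leaving out control 2, control 3 or mutant 6 turned it to 0.13, 0.06 and 0.30.

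The 6 untested genes of complex IV and 1 of complex I fall into 3 kinds. Cox4i2, the lung isoform of subunit 4, and Cox7a1 and Cox8b, known from heart and muscle, had at most 13, 12 and 6 reads in a library. Cox8c, a testis isoform, was listed at 0 in all 7 libraries. Cox4i1, Cox6a2 and Ndufa13 were also listed at 0, and the whole span of each is covered by other genes. The same held throughout the tables: 1351 of 1351 protein-coding genes whose whole span is shared were listed at 0, against 24.7% of 11728 with no overlap. Cox4i1, the ubiquitous isoform of an essential subunit, shares its span with Emc8 and with Gm20388, a model on the same strand that had 1242 to 1697 reads. Ndufa13, an essential complex I subunit, shares its span with Yjefn3 on the same strand and Tssk6 on the other, and Cox6a2, an isoform known in parvalbumin neurons, with Itgad on the other strand. A value of 0 in these 3 genes therefore does not show absent expression.

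Complex V had a median of -0.38 over 18 tested genes. Of these, 2 fell (11.1%, beside 4.78% of all tested genes): Atp5c1 and Atp5f1. Atp5c1 (chromosome 2, 10056016 to 10080510) encodes the rotating gamma subunit of the catalytic head. It was at 167.1, 165.3, 166.3 and 157.1 CPM in controls and at 123.1, 129.8 and 125.4 CPM in mutants. Both groups were tight and far apart, control 4 included, and the log2 fold change was -0.38 ± 0.10 (edgeR, adjusted p = 0.0309; 0.0654 with no filter on low counts), a ratio of means of 0.769.

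Atp5f1 (chromosome 3, 105942698 to 105960099) encodes subunit b of the peripheral stalk, which keeps the head from turning. It was at 124.4, 112.1, 106.6 and 98.9 CPM in controls and at 81.4, 87.9 and 84.8 CPM in mutants. No mutant reached a control, and the value was -0.38 ± 0.11 (edgeR, adjusted p = 0.0450; 0.063 with no filter on low counts). A near-identical pseudogene held 24.8% of the joint counts of Atp5f1 and its copy, against 8.97% for Atp5c1 and 3.65% for Cox7b, so these values depend on how the counting split such reads.

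**Figure D5:**
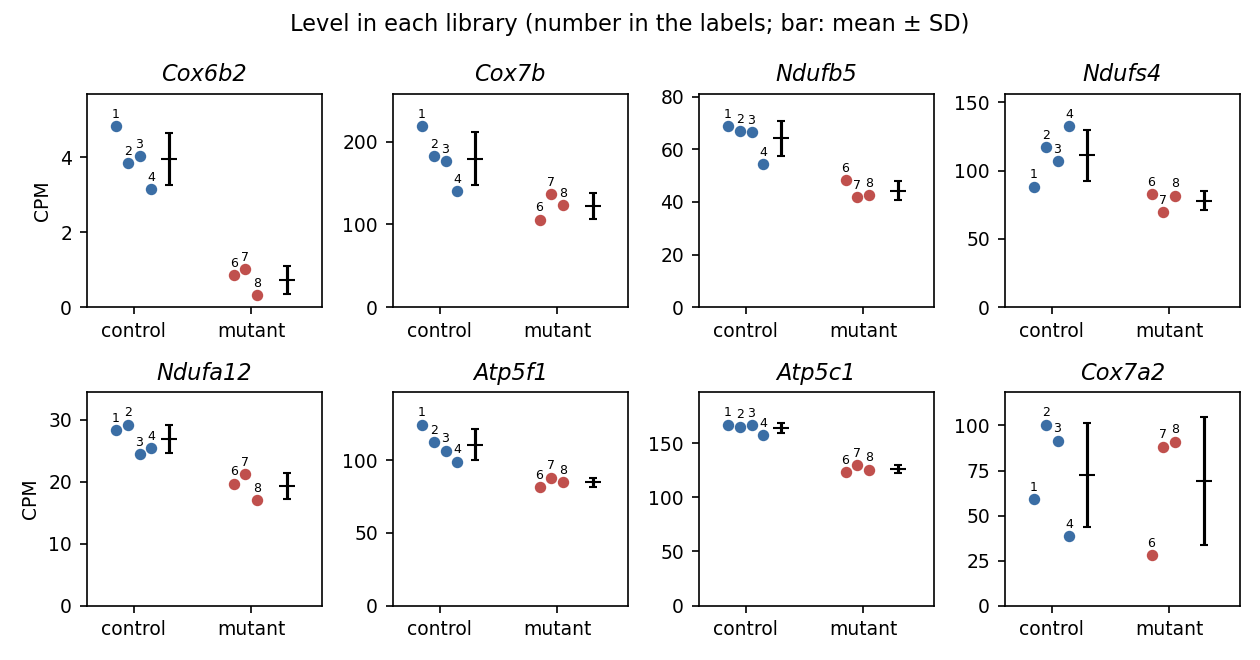
CPM (vertical axis, from 0) in each library of controls (blue) and mutants (red) for the 7 members that fell and for Cox7a2; numbers are those of the labels and bars show the mean ± SD. The groups do not overlap in the first 7 panels, with Cox6b2 at 3.15 to 4.84 against 0.313 to 1.01 CPM, while Cox7a2 overlaps throughout.

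The catalytic subunits of the head had similar values but wider spreads. Atp5b, the beta subunit, was at 604.4, 417.8, 417.7 and 323.3 CPM in controls and 327.3, 362.6 and 347.6 CPM in mutants, and control 4 was below all mutants. The value was -0.35 ± 0.19 (edgeR, adjusted p = 0.309). Atp5a1, the alpha subunit, was at 376.5, 268, 275.2 and 205.2 CPM in controls and 194, 228.1 and 217.7 CPM in mutants, with control 4 between mutant 6 and the other two; its value was -0.40 ± 0.18 (edgeR, adjusted p = 0.208). Atp5g1, Atp5g2 and Atp5g3 encode the same protein of the c-ring, through which protons pass, and had values of -0.47 ± 0.17, -0.20 ± 0.17 and -0.39 ± 0.19. A pseudogene held 41.3% of the joint counts of Atp5g1 and its copy, and 55.6% for Atp5o.

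Atp5l and Atp5j of the membrane part and stalk had no overlap between the groups, with -0.30 ± 0.11 and -0.48 ± 0.16. The second identifier of Atp5o, a model of 242.6 kb that shares 98.3% of its span with other genes, had under 2 CPM in each library and a value of -0.60 ± 0.58. The only member above 0, Atp5s, was at 30.1, 37.7, 35.1 and 32.0 CPM in controls and 35.2, 43.9 and 41.3 CPM in mutants. Mutants 7 and 8 exceeded all controls, and its value was 0.25 ± 0.13 (edgeR, adjusted p = 0.283). Atp5s was named as a coupling factor of the ATP synthase and is not counted among its structural subunits.

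Levels between members were compared per length. Per kb of merged exon, the highest members in controls were Cox8a at 161 CPM, Cox6a1 at 153 and Cox7b at 148, and in mutants these were at 134, 130 and 100.4 CPM. The lowest tested members, besides the second Atp5o identifier, were Ndufb7 at 3.13 CPM per kb in controls and 2.67 in mutants, and Cox6b2. Nuclear RNA holds introns, and per kb of span not shared with other genes the order was another, with Atp5b at 63.3 CPM and Atp5g3 at 61.0 in controls and 49.6 and 46.6 in mutants.

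Other genes of the pathway were taken from lists chosen by role. Of 39 tested assembly factors, which build the complexes, 0 passed the test in edgeR in either direction, with a median of -0.17. At an unadjusted p under 0.05 in edgeR, 6 were lower, beside 11.7% of all tested genes. DESeq2 called 2 lower (6.13% of all tested genes) and voom 4 (9.54% of all tested genes). Of 8 electron carriers and subunits outside the name pattern, such as cytochrome c (Cycs), 1 fell (12.5%, beside 4.78% of all tested genes). This was Etfa, which carries electrons from fatty acid oxidation, at -0.39 ± 0.10 (edgeR, adjusted p = 0.0361). Subunits encoded on the mitochondrial genome gave 273 to 570 reads in all per library in these nuclear preparations; 6 of 13 were tested, 0 passed in edgeR, DESeq2 or voom, and 0 had an unadjusted p under 0.05 in edgeR.

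The tricarboxylic acid cycle and its entry enzymes, which feed complexes I and II, had a median of -0.26 over 19 genes. Of these, 4 fell (21.1%, beside 4.78% of all tested genes). Without single libraries, 2 to 8 were called lower, beside 2.22% to 6.98% of all tested genes. Pdhb, a subunit of pyruvate dehydrogenase, was at 300.0, 254.7, 246.1 and 191.9 CPM in controls and 152.2, 144.7 and 140.6 CPM in mutants, with no overlap and a value of -0.77 ± 0.15 (edgeR, adjusted p = 0.00588). Pcx, which makes oxaloacetate, had -0.65 ± 0.11, Idh3a, the NAD-dependent isocitrate dehydrogenase, -0.54 ± 0.14, and Ogdh, of the oxoglutarate dehydrogenase complex, -0.45 ± 0.12.

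Of 19 regulators of mitochondrial biogenesis 2 fell (10.5%, beside 4.78% of all tested genes), with a median of -0.10 over the list. Ppargc1a encodes PGC-1α, the coactivator named above, and was at 157.9, 184.5, 172.6 and 206.2 CPM in controls and 111.1, 115.9 and 93.4 CPM in mutants. All mutants were far below all controls, with a value of -0.76 ± 0.13 (edgeR, adjusted p = 0.0028) that was called in every fit run. The other was Esrrb, an estrogen-related receptor at a few CPM, named here after its value was seen. Nrf1 was at 0.09 ± 0.15, Tfam, the mitochondrial transcription factor, at -0.06 ± 0.16, and Yy1 at -0.15 ± 0.12, and none of these passed.

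Of 17 genes in the list of mitochondrial carriers and channels, 2 fell (11.8%, beside 4.78% of all tested genes). Slc25a3, which brings phosphate to the ATP synthase, was at -0.63 ± 0.17, and Slc25a13, an aspartate-glutamate carrier, at -1.39 ± 0.32. Slc25a13 was at 11.98, 23.43, 21.62 and 41.54 CPM in controls and 9.075, 9.731 and 9.384 CPM in mutants. Control 1 was nearest to the mutants. With no filter on low counts, Slc25a13 was not called (edgeR, adjusted p = 0.142). Without mutant 6, 7 or 8, 0 genes of the list were called lower, beside 2.4%, 2.22% and 2.49% of all tested genes. Of 16 glycolysis genes, 2 rose, beside 4.63% of all tested genes, and 1 fell (6.25%, beside 4.78%). Both genes that rose encode subunits of phosphofructokinase: Pfkl at 0.69 ± 0.13 and Pfkp at 0.68 ± 0.15. The remaining subunit, Pfkm, named here after its value was seen, did not pass, with -0.31 ± 0.14 and all mutants below all controls (edgeR, adjusted p = 0.204). The third gene to pass was Ldhb, a lactate dehydrogenase subunit, which fell by 0.77 on the log2 scale (edgeR, adjusted p = 0.00240).

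Ribosomal proteins gave a comparison with other short, widely expressed genes. Mitochondrial ribosomal proteins had a median of -0.15 over 71 genes, of which 53 were under 0. Mrpl55 and Mrpl42 fell, and these 2 are 2.82% of the list, below the 4.78% of all tested genes. Cytosolic ribosomal proteins had a median of 0.06 over 72 genes (-0.07 without control 4), with 0 calls in either direction by edgeR or DESeq2, 1 call (higher) by voom, and 2 at an unadjusted p under 0.05 in edgeR. The share under 0 was thus 76 of 77 in oxidative phosphorylation genes, 53 of 71 in mitochondrial ribosomal proteins and 25 of 72 in cytosolic ones, which is a description of these lists and not a test between them.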

How the data were processed

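Nuclear RNA of 8 samples was made into cDNA with SMART-Seq v4 and sequenced from both ends on a NextSeq500, per the labels' protocols; this method has no molecular identifiers, so counts are not independent molecules. The authors deposited counts of reads per gene, and the submitters' processing notes name Bowtie2 2.5.3 and the builds mm10 and GRCm38. The counting program and its strand setting are not given in the sources used here. All 55450 identifiers matched GENCODE M21.

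Tests used edgeR 4.0.16 under R 4.3.3, with filterByExpr (least count 10, least total 15), TMM scaling, a robust quasi-likelihood fit with the group as the only term, two-sided tests and Benjamini-Hochberg adjustment over all tested genes at 0.05. CPM are TMM-scaled. The fits were tested on simulated data. Alternatives used DESeq2 1.42.0, limma 3.58.1 voom with quality weights, 1 surrogate variable (sva 3.50.0), a spline of log10 genomic length (df 4) as an offset, and fits without single libraries. Copies were pseudogenes aligned over at least 50% of their length at 95% identity or more for at least 75 bases.

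The members and lists were chosen with earlier results of these data known. Named genes are the called members, the 10 largest changes, core subunits, paired isoforms and the called genes of each list (at most 4, mean of at least 5 CPM); other members are named to describe each complex. One gene that this rule names is not reported here. The name pattern of cytosolic ribosomal proteins also took 10 Rps6k kinases, which were left out after the list was seen.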

Additional observations from a re-analysis of the deposited data

Results flagged for a closer look

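Of 56 values examined for a library that stands apart from its group, 2 had one, where chance gives about 1 in 20. Ndufb5 in controls had a gap ratio of 0.846 (critical value 0.829 for 4 samples), because control 4 was at 54.3 CPM and the other controls at 66.6 to 68.8 CPM. Mrpl42, a mitochondrial ribosomal protein, had a gap ratio of 0.88 in controls, with control 4 at 62.3 CPM and the others at 70.5 to 71.6 CPM. In both genes control 4 was nearest to the mutants, and all mutants were still below it.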

How the results depend on the processing

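No paired analysis was possible because the groups share no replicate numbers (1 to 4 in controls, 6, 7, 8 and 10 in mutants). The members' median stayed under 0 in each fit run, from -0.41 to -0.20. Members called lower (7) numbered 28 with voom, 18 with the length offset, 30 with 1 surrogate variable, 27 without controls 1 and 4, 26 without them plus the length offset (an alternative chosen after seeing the data), and 1 to 35 when single libraries were left out. All genes called (1549) numbered 3147, 2708, 3527, 2778 and 2898 in the same order, and 734 to 2347 without single libraries. Genes of the pathway lists called lower (12) numbered 36, 26, 37, 34 and 33, and 4 to 33 without single libraries. The lists held 39, 8, 6, 19, 19, 17, 16, 71 and 72 tested genes in the main fit. Of all tested genes, 4.78% were called lower in that fit and 9.54%, 8.68%, 10.9%, 8.48% and 9.46% in the same order. Without single libraries this share was 2.22% to 6.98%. List genes called higher (2, beside 4.63% of all tested genes) numbered 7, 8, 14, 6 and 8, 1 to 5 without single libraries, and 4 with DESeq2. Several fits call more and others fewer, and the cause was not tested. Without single libraries, the median of the biogenesis regulators ranged from -0.21 to -0.0532, Ndufv1 from -0.153 to 0.058, Uqcrfs1 from -0.402 to 0.0235 and Cox7a2 from -0.321 to 0.30, with a change of sign without control 1 in the first 2 of these genes and without control 2 (0.13), control 3 (0.06) or mutant 6 in Cox7a2. Without controls 1 and 4 plus the length offset, Ndufv1 was at 0.0162 and the median of the 6 mitochondrial genome subunits at 0.24. Atp5o (second identifier) was at 0.0285 with voom. None of the values that changed sign was called. Depth limits the lowest members: Cox6b2 had 4 to 11 reads in a mutant.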
